A study of Mus musculus with 12 samples.

Results

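The eIF2 alpha kinases and the mitochondrial stress relay were taken as 6 named genes, found by symbol among the 21671 genes of the deposited table. They are the 4 kinases Eif2ak1, Eif2ak2, Eif2ak3 and Eif2ak4, the phosphatase partner Ppp1r15b and the protease Oma1. All 6 were among the 9745 genes that passed a filter on low values (at least 1 RPKM, the reads on a gene per length and per library total, in at least 3 libraries). The libraries came from mouse FL5.12 cells, an interleukin 3 dependent line of BALB/c origin labelled as prolymphocytic, and every group carried a retrovirally expressed MycER, a Myc protein that acts once 4-hydroxytamoxifen (OHT) is bound to it. Per the methods of the study, cells were passaged in medium with reduced glucose before experiments with IACS-010759. Untreated cells received no drug. The OHT group was kept in 100 nM OHT for 72 h, the IACS group received 135 nM of the complex I inhibitor IACS-010759 for 24 h, and the OHT_IACS group was primed with OHT for 48 h before the same 24 h of IACS-010759 in the continued presence of OHT. The cells were a selected pool and not a single clone. No libraries of parental cells given OHT were analysed here, so MycER activation and OHT itself cannot be told apart.

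Total RNA depleted of ribosomal RNA was sequenced in 12 libraries, with 3 replicates in each of the 4 conditions. Reads on genes ran from 4199266 to 5762340 a library. Of the 12 pairs of replicates, IACS replicates 1 and 2 had a chi-square of 1.02 per gene, where noise alone gives 1 on average, and the test did not tell them apart from sampling noise. They were therefore counted as 1 sample, which left 2 IACS samples. The chi-square per gene of the other pairs ran from 1.138 to 4.823, the largest of which belonged to OHT replicates 1 and 2. OHT replicates 1 and 3 had the smallest library totals. The methods call the replicates biological. The labels do not say whether they were separate cultures, and p-values measure the spread between these samples. Of the 8 markers of B-lineage precursors, Pax5 and Rag1 were at 0 in every library and Cd79b alone had an RPKM of at least 1 in all of them. Ptprc, the common leukocyte antigen, had an RPKM of 15 to 19.3, and Csf2rb, a subunit of the interleukin 3 receptor, of 39.8 to 48.5. Gata1, an erythroid and mast cell factor, had an RPKM of 26.0 to 32.9, and Mpo, a myeloid granule enzyme, of 8.65 to 13.7.

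Phosphorylation of the alpha subunit of eIF2 turns this initiation factor into an inhibitor of its own exchange factor eIF2B. General translation then falls while the mRNA of Atf4 and a few others is translated better, a programme known as the integrated stress response (ISR). Each kinase reads a different stress. Eif2ak1 (HRI) responds to lack of heme and to mitochondrial damage, Eif2ak2 (PKR) to double-stranded RNA, Eif2ak3 (PERK) to unfolded proteins in the endoplasmic reticulum and Eif2ak4 (GCN2) to uncharged tRNA. Ppp1r15b (CReP) is the constitutive partner that directs protein phosphatase 1 to eIF2 alpha. Oma1 is a stress-activated protease of the mitochondrial inner membrane which cleaves Opa1 and Dele1, and cleaved Dele1 activates HRI. The study examined the ISR under complex I inhibition. Its immunoblots of these cells showed more phosphorylation of eIF2 alpha with IACS-010759, but not with OHT. Its search for upstream regulators of the mRNAs changed by IACS-010759 named EIF2AK3 and ATF4. The mRNA of the genes upstream of eIF2 can be read from the same libraries. Neither phosphorylation nor proteolysis was measured in these libraries.

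On GRCm38, Eif2ak1 lies at chr5:143817788-143904251 (plus strand), Eif2ak2 at chr17:78852564-78882573 (minus), Eif2ak3 at chr6:70844515-70905245 (plus) and Eif2ak4 at chr2:118388618-118475234 (plus). Ppp1r15b lies at chr1:133131143-133139783 (plus) and Oma1 at chr4:103313812-103371868 (plus). The windows around the start sites of the 2 genes that changed are shown here, since Eif2ak2 is known as an interferon-stimulated gene and Oma1 is the protease of the relay. Promoter windows reach from 250 bases before to 50 bases after the start site, taken from RefSeq on GRCm38.p6, and were found for 5 of the 6 genes. In the first sequence the capitals mark a match to the interferon-stimulated response element (ISRE). The Oma1 window has no capitals.
Eif2ak2, chr17:78882523-78882822, minus strand: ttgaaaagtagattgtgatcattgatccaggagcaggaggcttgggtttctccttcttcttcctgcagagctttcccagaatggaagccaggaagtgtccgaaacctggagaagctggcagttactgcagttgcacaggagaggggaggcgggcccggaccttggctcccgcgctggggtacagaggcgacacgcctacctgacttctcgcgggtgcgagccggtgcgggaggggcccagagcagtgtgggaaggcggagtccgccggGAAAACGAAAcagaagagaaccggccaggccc
Oma1, chr4:103313596-103313895, plus strand: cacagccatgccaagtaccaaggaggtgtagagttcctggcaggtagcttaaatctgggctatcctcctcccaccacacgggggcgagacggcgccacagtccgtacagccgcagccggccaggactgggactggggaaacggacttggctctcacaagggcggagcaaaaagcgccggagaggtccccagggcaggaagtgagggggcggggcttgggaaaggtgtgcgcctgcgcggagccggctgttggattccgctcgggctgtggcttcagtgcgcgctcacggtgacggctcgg

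The ISRE was searched as 2 GAAA blocks with 2 bases between them, on both strands, and began at position 19 after the start site of Eif2ak2. It was found in 3.45% of 32544 promoter windows, and in no other window of the 6 genes. The window of Eif2ak3 held 6 CCAAT boxes (CCAAT, on either strand) and that of Eif2ak1 held 1, against at least 1 in 37.4% of all windows. The ATF4 composite element TGATGNAA (3.91% of all windows), the CRE TGACGTCA (1.8%), the E-box CACGTG bound by MYC (7.17%) and the ER stress element (0.12%), which contains a CCAAT box, were not found in these windows. Both strands were searched for each, and a match or its absence says only which letters a window holds.

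Levels of the 6 genes differed widely, on the scale of RPKM after scaling of the libraries (scaled RPKM). This scale is per length, so that genes of different length can be set side by side. The level of Eif2ak1 may include reads of Aimp2, which overlaps it on the opposite strand, since the strand setting of the counting is not given. Ppp1r15b was the most abundant, with a mean of 32.9 over the 12 libraries, above 88.5% of the genes tested. Eif2ak1 and Eif2ak2 followed, each with a mean scaled RPKM of 10.2, and then Oma1 with 4.65, Eif2ak4 with 3.02 and Eif2ak3 with 2.41. Reads behind single values ran from 1807 to 2641 for Ppp1r15b, but from 66 to 163 for the short Oma1 mRNA (1866 bases), where counting alone gives a coefficient of variation of 7.83% to 12.3%.

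**Figure D1:**
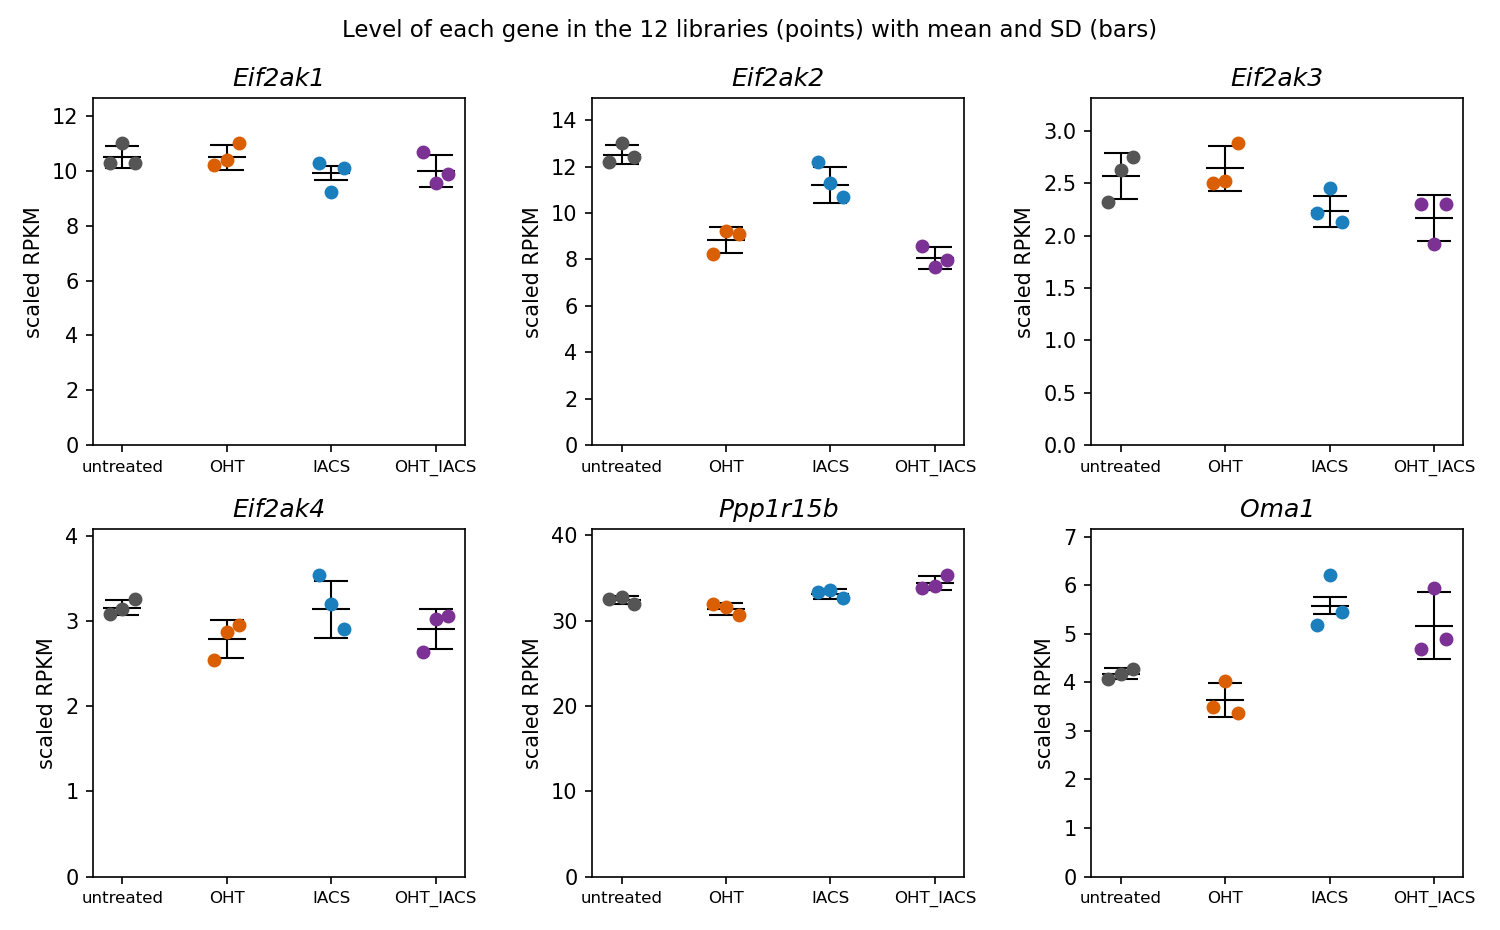
Scaled RPKM (vertical axes, each from 0) of the 6 genes in the 12 libraries, by condition. Points are libraries, and bars give the mean and SD with IACS replicates 1 and 2 counted once. Eif2ak2 lies at 7.66 to 9.24 in the 6 libraries with OHT and at 10.7 to 13.0 in the 6 without, and Oma1 lies highest in the libraries with IACS-010759.

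The 4 kinases were taken first. Eif2ak2 mRNA was lower in every library with OHT than in every library without. Scaled RPKM of Eif2ak2 was 12.2, 13.0 and 12.4 in untreated cells and 8.22, 9.24 and 9.11 with OHT. It was 12.2, 11.3 and 10.7 with IACS and 8.60, 7.66 and 7.99 with OHT_IACS. The ranges with and without OHT did not overlap in either background. OHT lowered Eif2ak2 by a log2 fold change of -0.50 (standard error 0.06, 95% interval -0.63 to -0.36; limma, Benjamini-Hochberg adjusted p = 8.4e-05), to 0.709 of the untreated level. Under IACS-010759 the log2 fold change of Eif2ak2 with OHT was -0.47 (standard error 0.07, 95% interval -0.62 to -0.31; limma, Benjamini-Hochberg adjusted p = 0.00065). The difference between these responses was 0.03 (95% interval -0.18 to 0.23; limma, Benjamini-Hochberg adjusted p = 0.93). Both calls held under every alternative that was run, with adjusted p up to 0.0040 and 0.0054.

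In response to IACS-010759, Eif2ak2 had log2 fold changes of -0.16 (95% interval -0.31 to 0.00) in nonprimed and -0.13 (95% interval -0.27 to 0.01) in OHT-primed cells, neither of which passed the threshold (limma, Benjamini-Hochberg adjusted p = 0.18 and 0.16). Some summed marker levels moved with OHT as well, each sum being carried by few genes. The summed RPKM of the 8 B-lineage markers was 3.88 to 4.6 in untreated cells and 2.66 to 2.75 with OHT, and 3.77 to 5.06 with IACS and 2.09 to 2.86 with OHT_IACS. That of the 5 myeloid markers was 14.9 to 16.3, 10.2 to 12.5, 12.7 to 15.4 and 9.77 to 10.5 in the same order. That of the 4 erythroid markers was 41.1 to 41.4, 42.1 to 44.9, 33.8 to 39.7 and 36.6 to 37.2. The 4 shared haematopoietic markers summed to 65.2 to 67.2, 66.4 to 70.7, 66.8 to 68.0 and 72.8 to 74.7, and this sum did not fall with OHT. Of these 4 markers, 3 had at least 1 RPKM in all libraries and 1 was under 0.5 RPKM in every library. Of the 8 B-lineage markers, 6 were under 0.5 RPKM in every library. Mpo alone of the myeloid markers, and Gata1 and Klf1 alone of the erythroid markers, had at least 1 RPKM in all libraries. Elane, Csf1r and Igll1 were near 0 throughout, and the T cell markers summed to at most 0.144. The part of these markers in the change of Eif2ak2 was not tested. In bulk RNA, fewer cells of a type and less RNA per cell cannot be told apart.

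Eif2ak1, the kinase of the mitochondrial relay, passed the threshold in no comparison. Scaled RPKM of Eif2ak1 was 10.3, 11 and 10.3 in untreated cells, 10.2, 10.4 and 11 with OHT, 10.3, 9.23 and 10.1 with IACS, and 10.7, 9.56 and 9.87 with OHT_IACS. All values lay between 9.23 and 11, and the IACS libraries lay just below the untreated libraries while the other groups compared overlapped. The log2 fold change of Eif2ak1 was -0.08 with IACS-010759 in nonprimed cells (95% interval -0.22 to 0.05; limma, Benjamini-Hochberg adjusted p = 0.43) and -0.07 in OHT-primed cells (95% interval -0.19 to 0.06; limma, Benjamini-Hochberg adjusted p = 0.43). With OHT its intervals were -0.12 to 0.12 in nonprimed cells and -0.12 to 0.15 under IACS-010759. Eif2ak1 overlaps Aimp2 on the opposite strand (up to 37.7 RPKM), and the strand setting of the read counting is not given in the sources used here.

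Eif2ak3, the sensor of the endoplasmic reticulum, was the rarest of the kinases. Scaled RPKM of Eif2ak3 was 2.32, 2.63 and 2.75 in untreated cells, 2.50, 2.52 and 2.88 with OHT, 2.22, 2.45 and 2.13 with IACS, and 2.30, 1.92 and 2.30 with OHT_IACS. The OHT_IACS libraries lay below the OHT libraries, whereas the IACS and untreated ranges overlapped. The log2 fold change with IACS-010759 was -0.27 in OHT-primed cells (95% interval -0.51 to -0.03; limma, Benjamini-Hochberg adjusted p = 0.097) and -0.19 in nonprimed cells (95% interval -0.46 to 0.07; adjusted p = 0.34), and neither passed the threshold. With quantile normalization the first of these was -0.34 and passed (limma, Benjamini-Hochberg adjusted p = 0.031).

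Eif2ak4, the sensor of amino acid shortage, was likewise called in none. Scaled RPKM of Eif2ak4 was 3.09, 3.14 and 3.26 in untreated cells, 2.54, 2.87 and 2.96 with OHT, 3.55, 3.20 and 2.91 with IACS, and 2.64, 3.03 and 3.06 with OHT_IACS. The OHT libraries lay below the untreated libraries, and in the other 3 comparisons of 2 groups the values overlapped. The log2 fold change with OHT was -0.18 (95% interval -0.39 to 0.03; limma, Benjamini-Hochberg adjusted p = 0.17), and that with IACS-010759 was -0.01 in nonprimed (95% interval -0.25 to 0.22) and 0.06 in OHT-primed cells (95% interval -0.15 to 0.27).

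The order of the 2 abundant kinases turned with OHT. Scaled RPKM of Eif2ak2 was above that of Eif2ak1 in all 6 libraries without OHT and below it in all 6 with OHT, and within each condition the ranges of the 2 genes did not overlap. The ratio of Eif2ak2 to Eif2ak1 was 1.18 to 1.2 in untreated cells, 0.809 to 0.891 with OHT, 1.06 to 1.22 with IACS and 0.801 to 0.809 with OHT_IACS. Eif2ak2 thereby made up 43.1% to 43.7% of the summed kinase level in untreated cells and 35.1% to 37.0% with OHT. These shares follow from the values above and were not tested. The order, the ratio and the shares would all move if reads of Aimp2 were counted on Eif2ak1. The lower neighbours, Eif2ak4 and Eif2ak3, did not overlap in untreated, IACS and OHT_IACS cells but overlapped with OHT.

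**Figure D2:**
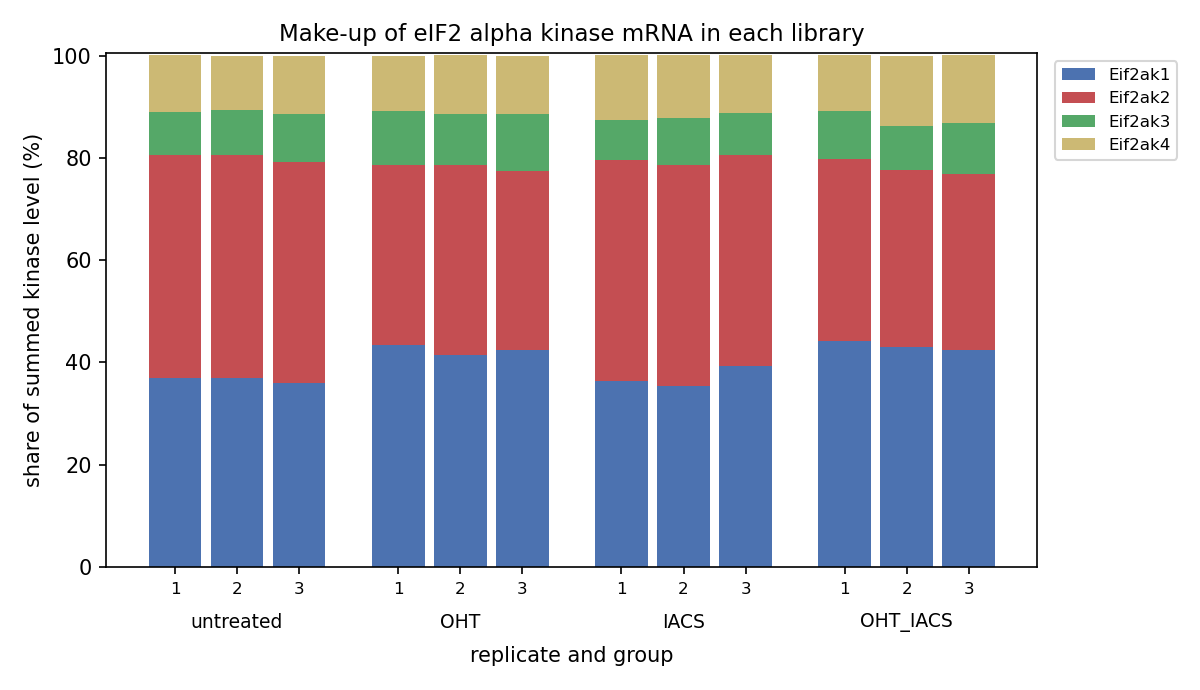
Share of each kinase in the summed scaled RPKM of the 4 kinases (vertical axis, %), with 1 bar for each of the 12 libraries. The Eif2ak2 part runs from 41.3% to 43.7% in the bars without OHT and from 34.4% to 37.0% in those with OHT.

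Ppp1r15b, the constitutive phosphatase partner, moved little. Scaled RPKM of Ppp1r15b was 32.5, 32.8 and 31.9 in untreated cells, 32, 31.6 and 30.7 with OHT, 33.4, 33.6 and 32.7 with IACS, and 33.8, 34.1 and 35.4 with OHT_IACS. All OHT_IACS values lay above those of every other group. The log2 fold change with IACS-010759 in OHT-primed cells was 0.13 (standard error 0.04, 95% interval 0.03 to 0.23; limma, Benjamini-Hochberg adjusted p = 0.052), which just missed the threshold. With IACS replicates 1 and 2 as separate samples the same change passed it (limma, Benjamini-Hochberg adjusted p = 0.039). In nonprimed cells it was 0.03 (95% interval -0.08 to 0.14; limma, Benjamini-Hochberg adjusted p = 0.72), and the difference between both responses was 0.10 (95% interval -0.05 to 0.24; limma, Benjamini-Hochberg adjusted p = 0.62).

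Oma1 mRNA was higher in all libraries given IACS-010759 than in their controls. Scaled RPKM of Oma1 was 4.07, 4.18 and 4.28 in untreated cells and 5.19, 6.22 and 5.45 with IACS. It was 3.50, 4.02 and 3.36 with OHT and 4.68, 5.95 and 4.89 with OHT_IACS. The ranges with and without IACS-010759 did not overlap in either background. IACS-010759 raised Oma1 in OHT-primed cells by a log2 fold change of 0.50 (standard error 0.09, 95% interval 0.29 to 0.70; limma, Benjamini-Hochberg adjusted p = 0.0031), to 1.41 times the OHT level. In nonprimed cells Oma1 rose by 0.41 (standard error 0.11, 95% interval 0.18 to 0.64; limma, Benjamini-Hochberg adjusted p = 0.027), to 1.33 times the untreated level. The difference between the responses was 0.09 (95% interval -0.22 to 0.40; limma, Benjamini-Hochberg adjusted p = 0.82).

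The call of Oma1 in primed cells held under every alternative that was run (adjusted p up to 0.016). That in nonprimed cells was lost without the filter (limma, Benjamini-Hochberg adjusted p = 0.052) and on leaving out untreated replicate 1, 2 or 3 (adjusted p = 0.078, 0.067 and 0.058), IACS replicate 2 (0.052) or IACS replicate 3 (0.13), with log2 fold changes of 0.34 to 0.44. With OHT the log2 fold change of Oma1 was -0.20 (95% interval -0.41 to 0.00; limma, Benjamini-Hochberg adjusted p = 0.11), and it passed the threshold without OHT replicate 2 (-0.28; adjusted p = 0.037). Under IACS-010759 it was -0.11 (95% interval -0.34 to 0.12).

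**Figure D3:**
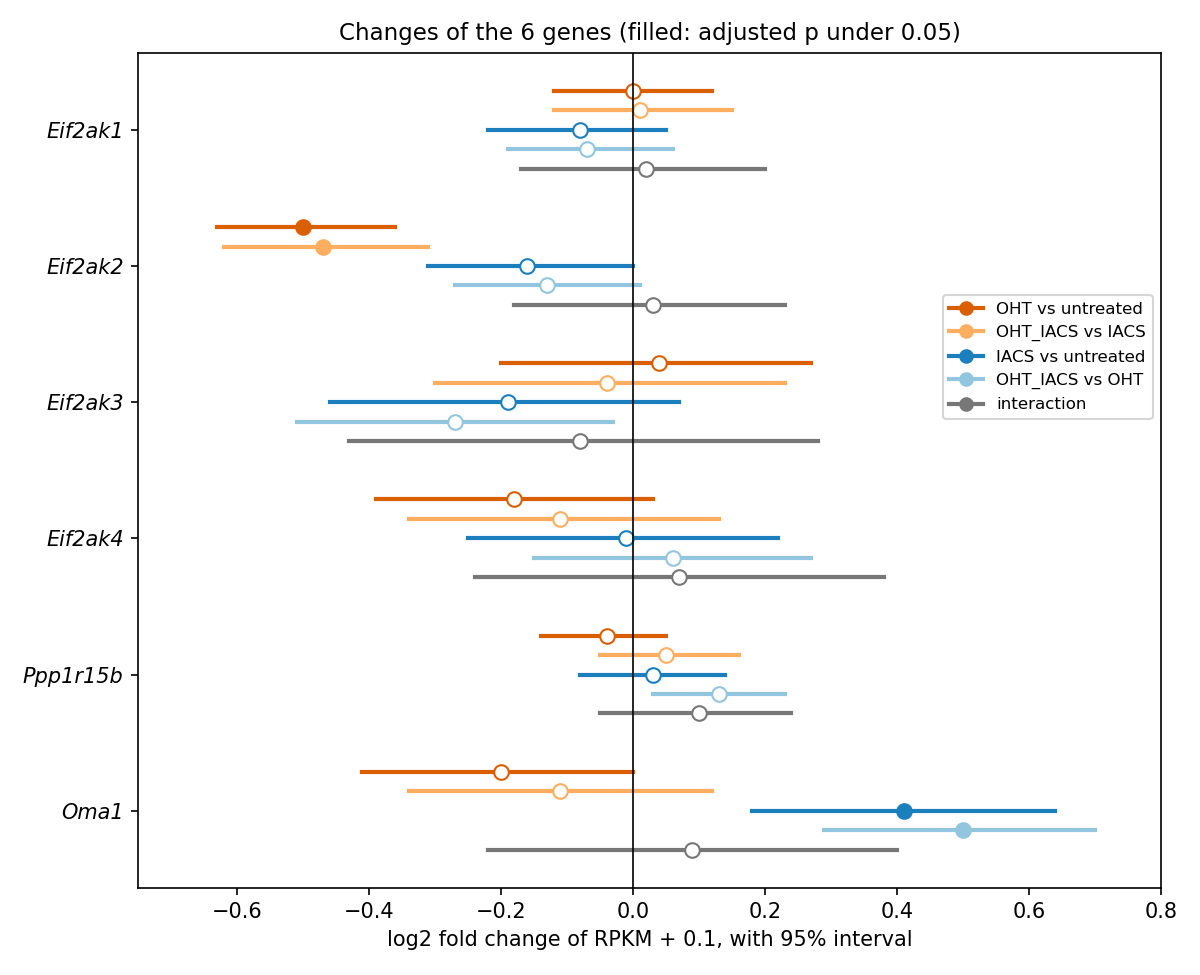
Log2 fold changes of RPKM + 0.1 (horizontal axis) of the 6 genes in the 4 comparisons and the interaction, with 95% intervals. Filled points have an adjusted p under 0.05. These are Eif2ak2 with OHT in both backgrounds (-0.50 and -0.47) and Oma1 with IACS-010759 in both (0.41 and 0.50).

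Counted over the 6 genes, OHT lowered 1 and raised none in nonprimed cells, against 17.9% of all genes tested lower and 17.5% higher. Under IACS-010759, OHT lowered 1 and raised none, against 9.85% lower and 9.66% higher. IACS-010759 raised 1 gene and lowered none in nonprimed cells (5.51% of all genes higher, 6.07% lower) and did the same in OHT-primed cells (11.4% higher, 11% lower). No interaction passed the threshold (limma; 0.0821% of all genes did), none of the 6 genes had an unadjusted p under 0.05 there, and none was called with voom. Groups did not overlap in 3 genes for OHT against untreated (46% of all genes), in 2 for IACS against untreated (38.6%), in 3 for OHT_IACS against OHT (36.9%) and in 2 for OHT_IACS against IACS (42.3%). These counts are near the share of all genes. The comparisons share groups, so that they are not independent of each other. The median log2 fold change of the 6 genes lay between -0.11 and 0.049 in the 5 comparisons, beside -0.014 to 0.013 for all genes.

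The partners of Oma1 in the inner membrane were then read from a list of 12 genes, of which 11 were tested. The shares of all genes beside this list and the lists below are those given for the 6 genes. With OHT they were 17.5% higher and 17.9% lower in nonprimed cells, and 9.66% and 9.85% under IACS-010759. With IACS-010759 they were 5.51% and 6.07% in nonprimed and 11.4% and 11% in primed cells. With IACS-010759, 2 rose and none fell in both nonprimed and primed cells, with medians of 0.037 and -0.026. Without untreated replicate 2 neither was called in nonprimed cells. Spg7, a subunit of the m-AAA protease, rose by 0.31 and 0.56 on the log2 scale (limma, Benjamini-Hochberg adjusted p = 0.036 and 0.00037), the former call being lost in 6 of 17 alternatives. Dele1, the Oma1 substrate that activates HRI and is listed under its older symbol 0610009O20Rik, rose by 0.25 and 0.17 (limma, Benjamini-Hochberg adjusted p = 0.028 and just under 0.05). Scaled RPKM of Dele1 was 7.89, 7.78 and 8.39 in untreated cells, 9.51, 9.71 and 9.47 with IACS, 8.61, 9.08 and 8.36 with OHT, and 9.15, 10.3 and 9.99 with OHT_IACS. The Dele1 ranges with and without the inhibitor did not overlap in either background, yet its call in primed cells was lost in 10 of 17 alternatives and that in nonprimed cells in 3 of 17.

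With OHT, 5 partners rose and 1, the prohibitin Phb, fell, and the median was 0.167. The 5 became 3 without the filter, with only the groups compared, with the log2 library total as covariate and without untreated replicate 2 or 3 or OHT replicate 1 or 3, and the fall of Phb was lost in 7 of 17 alternatives. Pgam5, a mitochondrial phosphatase cleaved under stress, rose by 0.43 (limma, Benjamini-Hochberg adjusted p = 0.00014). Opa1, the fusion GTPase cut by Oma1, rose by 0.30 and Afg3l2, another m-AAA subunit, by 0.25 (limma, Benjamini-Hochberg adjusted p = 0.00079 and 0.0031). With OHT under IACS-010759, against IACS-010759 alone, the same genes rose by 0.40, 0.22 and 0.30 (limma, Benjamini-Hochberg adjusted p = 0.0011, 0.019 and 0.0040), and Phb fell. Under IACS-010759 the call of Opa1 was lost in 4 of 17 alternatives and that of Phb in 5 of 17. Yme1l1, the protease that shares Opa1 with Oma1, passed the threshold in no comparison. The ratio of Oma1 to Yme1l1 in scaled RPKM was 0.210 to 0.247 in untreated cells, 0.306 to 0.353 with IACS, 0.170 to 0.232 with OHT and 0.268 to 0.338 with OHT_IACS. As with Oma1 itself, the values with and without IACS-010759 did not overlap.

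Regulators of the kinases numbered 7, all tested. Dnajc3 (P58IPK), an inhibitor of PERK and PKR, fell in all 4 comparisons, by 0.18 with OHT, by 0.24 with OHT under IACS-010759, by 0.22 with IACS-010759 and by 0.27 with IACS-010759 in primed cells (limma, Benjamini-Hochberg adjusted p = 0.021, 0.016, 0.036 and 0.0041). The last of these calls alone was kept in every alternative. Gcn1l1, which is needed for the activation of GCN2, rose by 0.34 with IACS-010759 in primed cells (limma, Benjamini-Hochberg adjusted p = 0.014), and the call was lost without OHT replicate 1. Hspa5 (BiP, which holds PERK inactive), Prkra (PACT, an activator of PKR), Tarbp2 (an inhibitor of PKR), Adar (which edits double-stranded RNA) and Impact (an inhibitor of GCN2) passed the threshold in none. Medians lay between -0.05 and 0.041.

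The substrate and its exchange factor were read from 9 tested genes of eIF2, eIF2B and Eif5. With OHT, 6 rose (17.5% of all genes did) and none fell, with a median of 0.198 beside 0.013 for all genes. The largest rises were in the eIF2 subunits Eif2s2 (0.24) and Eif2s1 (0.23), the latter being the alpha subunit that the kinases phosphorylate, and in the eIF2B subunit Eif2b3 (0.21; limma, Benjamini-Hochberg adjusted p = 0.012, 0.014 and 0.037). The count of 6 fell to 1 once the log2 library total entered as covariate, and to 3 without untreated replicate 2, untreated replicate 3 or OHT replicate 3. With IACS-010759, 1 gene fell in nonprimed and 3 in primed cells, with Eif2b2 lower in both (-0.32 and -0.27; limma, Benjamini-Hochberg adjusted p = 0.0056 and 0.0043). The 3 became 6 with that covariate and without OHT replicate 2, and the fall of Eif2b2 in nonprimed cells was lost without IACS replicate 3. Under IACS-010759, OHT raised 1 gene, Eif2b4 (0.17; limma, Benjamini-Hochberg adjusted p = 0.04), a call lost in 8 of 17 alternatives.

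Of the 5 genes around protein phosphatase 1, Ppp1r15a alone changed. Ppp1r15a (GADD34) is the inducible counterpart of Ppp1r15b. It rose by 0.27 with OHT and by 0.37 with IACS-010759 (limma, Benjamini-Hochberg adjusted p = 0.016 for both), while its log2 fold change with IACS-010759 in primed cells was 0.17 (adjusted p = 0.13). Scaled RPKM of Ppp1r15a was 5.90 to 6.93 in untreated cells and 8.69 to 8.92 with OHT_IACS, below every value of Ppp1r15b. Without untreated replicate 1 both calls were lost, and that with OHT was also lost without OHT replicate 2.

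The ISR genes downstream of eIF2 were read from the same fit. Of 9 tested ISR genes, 7 rose and none fell with IACS-010759 in both nonprimed and primed cells, with medians of 0.67 and 0.761. The largest rises in nonprimed cells were in Trib3 (1.98), Atf5 (1.73) and Nupr1 (1.51), and in primed cells in Atf5 (1.98), Trib3 (1.54) and Nupr1 (1.36), with adjusted p up to 2e-05 (limma, Benjamini-Hochberg). Trib3 is a pseudokinase that restrains ATF4, Atf5 a transcription factor translated like ATF4, and Nupr1 a stress-induced chromatin protein. Scaled RPKM of Trib3 was 5.29, 5.94 and 6.12 in untreated cells and 21.5, 22.8 and 24.1 with IACS, and every value with IACS-010759 was above every value without. Atf4 itself, which is controlled largely at translation, had log2 fold changes of 0.28 and 0.13 (limma, Benjamini-Hochberg adjusted p = 0.089 and 0.30). With OHT, 4 ISR genes rose and 1 fell, among them Trib3 (0.68), Atf5 (-0.40) and Asns (0.33; limma, Benjamini-Hochberg adjusted p = 0.00037, 0.034 and 0.0046). The call of Atf5 with OHT was lost in 9 of 17 alternatives. Under IACS-010759, OHT raised Cebpb (0.31; limma, Benjamini-Hochberg adjusted p = 0.041), and this call was lost in 6 of 17. The ATF4 composite element was found in the windows of 3 of the 9 tested genes, Trib3, Asns and Nupr1.

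Eif2ak3 is 1 of several sensors of unfolded proteins. Of the 6 tested genes of the other branches, 3 rose and none fell with IACS-010759 in both backgrounds, with medians of 0.143 and 0.191. Atf6 rose by 0.39 and 0.31 (limma, Benjamini-Hochberg adjusted p = 0.00098 and 0.0013), Ern1 (IRE1 alpha) by 0.51 and 0.44 (adjusted p = 0.032 and 0.023) and Xbp1, whose mRNA IRE1 splices, by 0.24 and 0.23 (adjusted p = 0.036 and 0.014). The calls of Ern1 were lost in 4 and 5 of 16 alternatives, and that of Xbp1 in nonprimed cells in 6 of 17. In nonprimed cells the count of 3 fell to 1 without the filter and without untreated replicate 1 or 2 or IACS replicate 3. With OHT, Atf6b rose by 0.29 and Xbp1 fell by 0.19, and under IACS-010759 Atf6b rose by 0.40 (limma, Benjamini-Hochberg adjusted p = 0.0023, 0.025 and 0.0013). The fall of Xbp1 was lost in 4 of 17 alternatives.

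Interferon-stimulated genes were listed because Eif2ak2 is one of them. Of 16 listed genes, 6 passed the filter, and the other 10, among them Ifit1, Isg15 and Mx1, had an RPKM under 1 in every library. With OHT all 6 tested genes fell (17.9% of all genes did), with a median of -0.417, and 3 of them did with the library total as covariate. Among them were the transcription factor Irf1 (-0.78) and Oas1a (-0.49), of an enzyme family that, like PKR, is activated by double-stranded RNA (limma, Benjamini-Hochberg adjusted p = 0.00015 and 0.0026). The calls of Stat2 and Irf9 with OHT were lost in 5 of 16 and 3 of 16 alternatives. Scaled RPKM of Irf1 was 3.89, 3.91 and 3.86 in untreated cells and 2.42, 2.44 and 1.84 with OHT. Under IACS-010759, OHT lowered 3 of the 6, with a median of -0.282, Irf1 among them (-0.59; limma, Benjamini-Hochberg adjusted p = 0.0049). With IACS-010759 none was called in either background (limma), although 1 gene in each had an unadjusted p under 0.05, and voom called 1 gene higher in nonprimed cells. The ISRE was present in the windows of Stat2 and Oas1a, 2 of the 4 tested genes with a window.

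**Figure D4:**
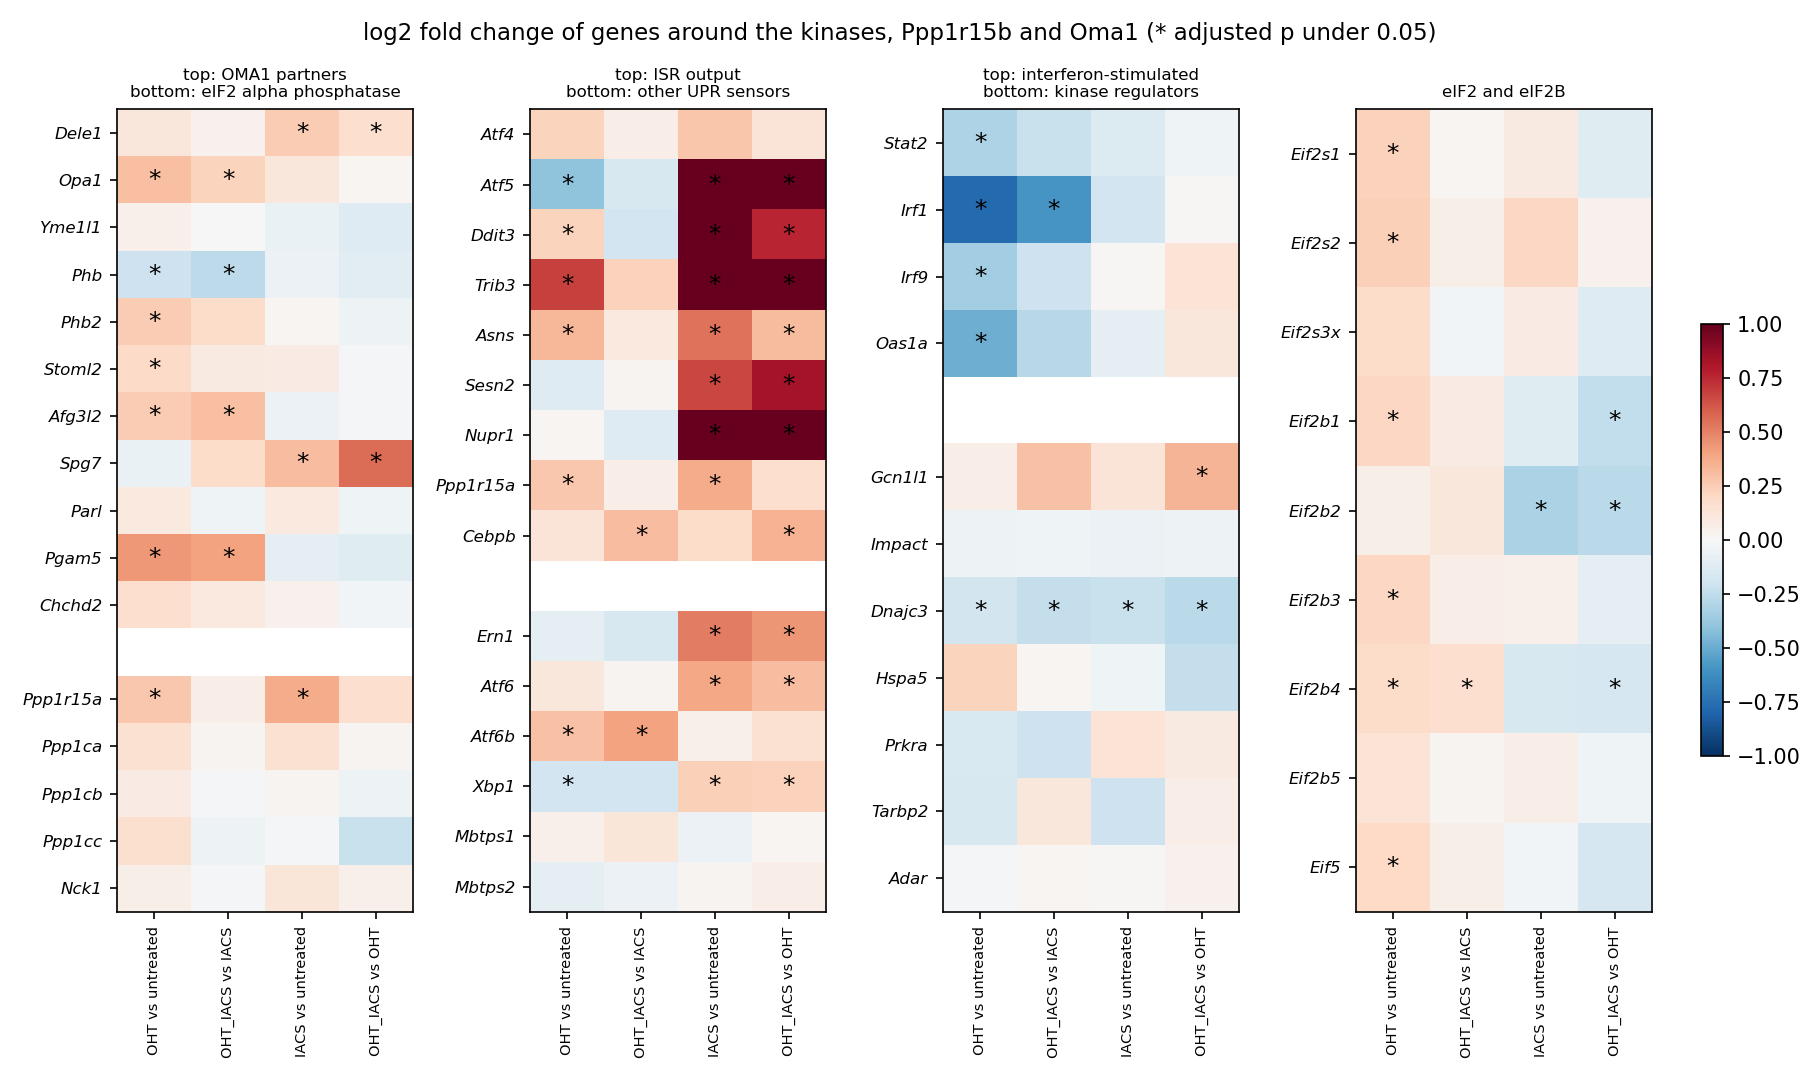
Log2 fold changes (colour, capped at -1 and 1) of tested genes of 7 lists in the 4 comparisons, with an asterisk where the adjusted p was under 0.05. Each row is a gene and each column a comparison. The 4 interferon-stimulated genes shown are marked lower in OHT against untreated, and of these Irf1 alone in OHT_IACS against IACS. Of the 9 ISR genes, 7 are marked higher in each column for IACS-010759.

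The genes most like each of the 6 were ranked by Pearson's r of log2(RPKM + 0.1) over the 12 libraries, which share their conditions. These are descriptions with no test. Closest to Eif2ak2 were Prtn3 (r = 0.986), a granule protease of myeloid cells, Pafah2 (0.98) and Lhpp (0.979), and mean scaled RPKM of Prtn3 was 21.2 in untreated cells and 10.4 with OHT. Closest to Oma1 were D16Ertd472e (0.949), 2610020H08Rik (0.948) and Hlcs (0.947), which attaches biotin to carboxylases. Ppp1r15b was nearest to Crebzf (0.957), Gzmb (0.921) and Gabpb1 (0.919). Eif2ak1 was nearest to Pwp2 (0.934), A230056P14Rik (0.876) and Topors (0.855), Eif2ak3 to Bcl7b (0.924), D3Ertd254e (0.9) and Ppm1d (0.882), and Eif2ak4 to Mgmt (0.909), Zc3h12a (0.902) and Bcl2l1 (0.88).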

How the data were processed

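RNA-seq of the 4 conditions was deposited by the authors as RPKM of each gene in each of 12 libraries. Per the labels, libraries were stranded and depleted of ribosomal RNA, and the submitters' processing notes name TopHat2 2.0.8, SAMtools, featureCounts 1.4.5-p1, DESeq2 and the build mm9. The 6 deposited columns of the authors' comparisons hold the log2 fold changes, and the p-values after adjustment, of 3 comparisons, and were not used. All columns of library values were used (0 unused).

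Reads, gene lengths and totals were recovered from the RPKM steps (all 15451 genes above 0, tolerance 0.001). Libraries were scaled by their median ratio, and log2(RPKM + 0.1) was compared with limma 3.58.1 in R 4.3.3 with a mean-variance trend. Each test was two-sided, and p was adjusted by Benjamini-Hochberg over 9745 genes with a threshold of 0.05. For low genes this scale makes fold changes smaller than they were. The plan was a fit of all 12 libraries. That IACS replicates 1 and 2 count once (11 replicates; chi-square p = 0.079 over 10467 genes) was chosen after the data had been seen, and after the changes of the 6 genes in both fits were known.

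The 6 genes and all lists were chosen with earlier results of these data known. Named are the 6 genes, the listed genes (in longer lists the 3 largest called changes first) and, for each of the 6, its 3 most similar genes. Some listed genes and markers are counted but not reported here by name. Alternatives were other pseudocounts, filters and scalings, a fit of the compared groups alone, the replicate block, the library total as covariate, voom on the recovered reads, IACS replicates 1 and 2 apart and each library left out. Recovery and fits were tested on simulated data. Gene positions and promoters are of GRCm38 and were not mixed with mm9.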

Additional observations from a re-analysis of the deposited data

Results flagged for a closer look

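The response of Ppp1r15b to OHT had opposite signs in the 2 backgrounds. Its log2 fold change was -0.04 in nonprimed cells (95% interval -0.14 to 0.05) and 0.05 under IACS-010759 (95% interval -0.05 to 0.16). Neither passed the threshold (limma, Benjamini-Hochberg adjusted p = 0.47 and 0.51). The OHT_IACS libraries all lay above the IACS libraries. The difference of 0.1 between the responses was tested as an interaction and did not pass the threshold (limma, Benjamini-Hochberg adjusted p = 0.62; 95% interval -0.05 to 0.24).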

How the results depend on the processing

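There were 23 alternatives, of which those that bear on a comparison were run for it, up to 17 for 2 groups and up to 22 for the interaction. Of the log2 fold changes of the 6 genes, 480 kept their sign and their side of the threshold, 36 changed sign, 8 passed the threshold only there and 6 lost it. Eif2ak2 with OHT, and Oma1 with IACS-010759 in primed cells, were called in all that were run. The number of the 6 genes called in IACS against untreated fell from 1 to 0 without the filter, and ran from 0 to 1 with each library left out (without IACS replicate 3, a lone IACS sample is assumed to vary like the other groups). In OHT_IACS against OHT it rose from 1 to 2 with a pseudocount of 1, with an RPKM of at least 5, with IACS replicates 1 and 2 apart and with the library total as covariate, each time through Ppp1r15b (0.13), and to 3 with quantile normalization (Ppp1r15b 0.18, Eif2ak3 -0.34). Left-out libraries gave 1 to 2, the 2 without OHT replicate 2, and 1 to 2 in OHT against untreated. The cause of these moves was not tested.

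Signs changed for small, uncalled values. With RPKM as deposited, Eif2ak1 had 0.02 with OHT, Eif2ak4 0.004 with IACS and Eif2ak1 -0.001 in the interaction. With quantile normalization, Eif2ak1 had 0.016 with OHT, Eif2ak4 -0.004 in OHT_IACS against OHT and Eif2ak2 -0.009 in the interaction. Eif2ak4 with IACS was 0.021 with voom and with IACS replicates 1 and 2 apart, and 0.056 with the covariate, which gave interactions of -0.055 (Eif2ak2), -0.009 (Eif2ak4) and -0.016 (Oma1). With libraries left out, the ranges were -0.036 to 0.027 for Eif2ak1 and -0.032 to 0.084 for Eif2ak3 with OHT, -0.049 to 0.093 for Eif2ak4 with IACS, and -0.01 to 0.123 for Eif2ak4 in OHT_IACS against OHT. In OHT_IACS against IACS they were -0.032 to 0.053 for Eif2ak1 and -0.105 to 0.044 for Eif2ak3. For the interaction they were -0.03 to 0.056 (Eif2ak1), -0.043 to 0.065 (Eif2ak2), -0.142 to 0.008 (Eif2ak3), -0.037 to 0.136 (Eif2ak4) and -0.014 to 0.165 (Oma1).

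Replicate numbers did not pair the samples (deviations of same-numbered libraries correlated at -0.172 to 0.104 over 18 pairs). With the replicate block, fitted with IACS replicates 1 and 2 apart since their mean has no number, Eif2ak4 with IACS was 0.021 and no call of the 6 genes changed. Of 68 calls of listed genes, 35 held throughout. Over all genes, 1129 were called in IACS against untreated, but 295 without IACS replicate 3, 631 to 652 without an untreated library and 1548 with IACS replicates 1 and 2 apart. A stricter RPKM minimum left Eif2ak3 and Eif2ak4 untested, and a fit of only the groups compared has no interaction. The 66 to 163 reads behind an Oma1 value limit its precision.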
